A study of Mus musculus with 74 samples.

Results

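The cells described here were single mouse pro-epicardial cells that carried transcripts of Sema3d, compared by whether they also carried transcripts of Scx. They were chosen by the counts of these genes alone: a cell was kept when Sema3d had 5 or more counts, and was then called Scx-positive when Scx had 5 or more counts and Scx-negative when it had fewer. Of the 74 cells in the series, 57 were kept, of which 32 were Scx-positive and 25 were Scx-negative. Since Scx and Sema3d chose the cells, their own values are given as a description and are left out of the comparison. Genes are compared as CPM, the counts of a gene scaled to a total of 1000000 counts in each cell.

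Scx encodes scleraxis, a basic helix-loop-helix transcription factor best known from tendon and ligament progenitors, where it acts on genes of the fibrous matrix. Sema3d encodes a secreted class 3 semaphorin, a guidance cue that is read by neuropilin and plexin receptors on other cells. Both genes are known as markers of compartments of the pro-epicardium, the transient outgrowth of mesothelium over the septum transversum that covers the heart with epicardium. Its surface is a polarised mesothelium carrying uroplakins, podocalyxin and ezrin, and beneath it lies loose mesenchyme. The inflow myocardium of the heart tube lies next to both.

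The pro-epicardial organ was dissected at embryonic day 9.5 from C57BL/6 embryos of the genotype Tbx18Cre;mTmG, dissociated and sorted one cell at a time by flow cytometry. Tbx18Cre turns on the membrane reporter in cells that express or have expressed Tbx18, so all 57 cells come from that lineage and other cells of the organ are not represented. There was no treated or control group. The labels name no embryo, so all cells count as 1 sample and no test was possible. Errors are standard deviations (SD) over cells. A gene was called higher or lower by a rule of size, a ratio of at least 2 in mean CPM + 1.

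Total counts ran from 234474 to 2618538 in Scx-positive cells, with a median of 830087, and from 237278 to 2046584 in Scx-negative cells, with a median of 1088057. Detection of a gene meant at least 5 counts in the cell, and the median cell had 8086 detected genes in the Scx-positive group and 7875 in the Scx-negative group. The median share of counts from mitochondrial genes was 1.87% and 1.72%. Intervals on shares of cells are exact (Clopper-Pearson) 95% intervals and cover the counting of cells only. Amplified reads without molecular identifiers are not independent molecules.

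The 2 sides of the Scx rule were far apart. All 25 Scx-negative cells had 0 Scx counts, and the lowest Scx-positive cells, 4 in number, had 9 counts. The next value was 15, the median of the Scx-positive cells was 71.5 counts and the highest was 383. Were counts independent molecules, a count of 0 would allow up to 3 counts. These correspond to 12.6 CPM in the shallowest Scx-negative cell and 1.47 CPM in the deepest. Amplified reads are not independent, so these values do not bound the level of Scx in the Scx-negative cells. For Sema3d, 3 kept cells were at the threshold of 5 counts, 1 of them Scx-positive and 2 Scx-negative. The kept cells had a median of 39 Sema3d counts and reached 258. Of the cells left out, the highest had 3 counts, the next had 1 and 15 had 0. Scx (ENSMUSG00000034161, GRCm38 chr15:76457452-76459458, plus strand) lies inside Bop1, a ribosome biogenesis gene on the minus strand (chr15:76452989-76477277). The annotated exons of the pair share 0 bases, but the library preparation does not mark the strand of a read. Bop1 was detected in 24 of the 25 cells without Scx counts and in all 32 with them, at 125 ± 68.6 and 189 ± 80.3 CPM (SD).

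Of 8906 genes that passed the filter on low values (a mean of at least 10 CPM and 5 or more counts in at least 10% of the 57 cells), 250 were at least 2-fold higher in Scx-positive cells, which is 2.81% of genes, and 441 were at least 2-fold lower, which is 4.95%. The median log2 ratio over all genes was -0.03. With medians in place of means the balance turned: 961 genes were higher and 592 lower, so that higher genes were 61.9% of those called, against 36.2% with means. Among the leading genes of the higher side were Lhx9, Lrrn4, Upk1b and Sox9, and among those of the lower side the cardiac genes Tnni3, Actc1 and Ryr2, the pacemaker channel gene Hcn4 and the forkhead gene Foxf1. Heart muscle transcripts were unevenly spread: 7 of 25 Scx-negative cells and 1 of 32 Scx-positive cells had cardiac actin, Actc1, at 1000 CPM or more. The comparison was therefore repeated without these 8 cells, which left 31 Scx-positive and 18 Scx-negative cells. Of 8828 genes then tested, 312 (3.53%) were higher and 407 (4.61%) were lower. The genes called both times were 205 higher ones, 82% of the first list and 65.7% of the second, and 286 lower ones, 64.9% and 70.3%.

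The 15 genes that led the higher side were Scrn1, Hpgd, Prkcb, Gcnt1, Clmn, Lhx9, Lrrn4, Sphk1, Ppp1r16b, Tmem151a, Upk1b, Sox9, Inka2, Cd9 and Slc13a4. They were selected by ratio among genes with a mean of at least 20 CPM and detection in at least 50% of the higher group. All 15 stayed past 2-fold without the cells high in Actc1. In every one of them the highest Scx-negative cell lay below the highest Scx-positive cell, but the groups overlapped for each gene.

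Scrn1, which encodes the cytosolic protein secernin 1, had the largest ratio of the leading higher genes. Its level in Scx-positive cells had a lowest value of 0, a median of 23.7 and a highest value of 101 CPM, and 17 of 32 cells detected it (53.1%, 34.7 to 70.9%). No Scx-negative cell detected it (0 of 25, 0 to 13.7%), and the highest held 2.47 CPM. The means were 31.6 ± 33.8 and 0.34 ± 0.66 CPM (SD), 24.3-fold apart on the scale of mean CPM + 1. Even so, 9 Scx-positive cells had 0 counts of Scrn1, so its absence did not mark a cell as Scx-negative.

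Several enzymes stood beside it. Hpgd, the dehydrogenase that inactivates prostaglandins, had medians of 16.7 and 0 CPM, was detected in 20 of 32 and 5 of 25 cells and was higher in the mean at 74.7 ± 183 against 4.22 ± 9.92 CPM. That mean leaned on a few cells, since the highest Scx-positive cell reached 986 CPM. Its log2 ratio was 3.86, and over the alternatives it ran from 1.96, with every cell thinned to 300000 counts, to 4.14 with medians. Prkcb, a protein kinase C isoform, was detected in 24 of 32 and 1 of 25 cells, at 27.7 ± 27.2 and 2.20 ± 8.58 CPM. Gcnt1, which builds core 2 branches on O-linked glycans, was detected in 20 and 3 cells at 29.3 ± 34.8 and 2.71 ± 6.18 CPM. Sphk1, which makes the lipid signal sphingosine-1-phosphate, was detected in 17 and 3 cells at means of 25.7 and 2.78 CPM. All 3 genes were low in level, and between 8 and 13 Scx-positive cells lay above the highest Scx-negative cell for each.

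The transcription factors and surface proteins were more abundant. Sox9, an HMG-box factor that is co-expressed with Scx in tendon and cartilage progenitors, was detected in all 32 Scx-positive cells with a lowest value of 12.8, a median of 476 and a highest of 1222 CPM. In Scx-negative cells it had a lowest value of 0, a median of 13.8 and a highest of 645 CPM, with detection in 15 of 25. The log2 ratio was 2.61, and 1 Scx-negative cell exceeded the Scx-positive median. Lrrn4, a leucine-rich repeat membrane protein of mesothelium, had a median of 294 CPM and a highest value of 716 CPM in Scx-positive cells, against 0 and 315 CPM. It was detected in 31 of 32 and 7 of 25 cells, with a log2 ratio of 2.86. Lhx9, a LIM-homeodomain factor, had medians of 174 and 0 CPM and was detected in 28 of 32 Scx-positive cells (87.5%, 71.0 to 96.5%) and 3 of 25 Scx-negative cells (12%, 2.55 to 31.2%). Upk1b, a uroplakin tetraspanin of the apical membrane, had medians of 151 and 0 CPM and was detected in 25 and 6 cells. The strip plot shows these genes cell by cell.

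The promoters of leading genes were read because scleraxis belongs to the basic helix-loop-helix factors, which bind the E-box CANNTG. The windows are the 250 bases upstream of an annotated start (RefSeq, GRCm38.p6), written along the gene's strand in lower case, with each CANNTG in capitals. Shown are the first 2 leading genes on each side that have a window clear of annotated exons: Hpgd (chr8:56294302-56294551, plus strand) and Gcnt1 (chr19:17372845-17373094, minus strand, the outermost of its starts) for the higher side, then Rbm24 (chr13:46418050-46418299, plus strand) and Hcn4 (chr9:58822699-58822948, plus strand) for the lower side.
Hpgd: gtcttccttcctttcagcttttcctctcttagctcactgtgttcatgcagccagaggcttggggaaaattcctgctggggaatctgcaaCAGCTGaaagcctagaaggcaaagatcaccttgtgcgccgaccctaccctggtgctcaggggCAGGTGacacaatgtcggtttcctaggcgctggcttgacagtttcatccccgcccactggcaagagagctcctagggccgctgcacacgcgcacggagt
Gcnt1: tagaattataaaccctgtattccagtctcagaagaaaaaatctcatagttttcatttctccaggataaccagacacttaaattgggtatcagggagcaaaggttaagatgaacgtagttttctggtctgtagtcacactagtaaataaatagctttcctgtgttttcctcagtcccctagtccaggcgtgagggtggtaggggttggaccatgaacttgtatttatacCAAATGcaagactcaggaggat
Rbm24: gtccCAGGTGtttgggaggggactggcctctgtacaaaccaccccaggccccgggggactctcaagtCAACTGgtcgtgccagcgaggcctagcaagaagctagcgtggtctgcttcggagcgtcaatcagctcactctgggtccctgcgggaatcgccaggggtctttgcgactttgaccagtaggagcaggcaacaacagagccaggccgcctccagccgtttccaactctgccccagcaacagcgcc
Hcn4: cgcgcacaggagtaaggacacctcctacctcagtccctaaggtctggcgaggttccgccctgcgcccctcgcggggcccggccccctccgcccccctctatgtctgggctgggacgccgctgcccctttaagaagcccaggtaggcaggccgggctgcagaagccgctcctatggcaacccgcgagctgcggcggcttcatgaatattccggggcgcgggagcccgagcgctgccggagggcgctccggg
The motif CANNTG reads the same on both strands as a pattern, so 1 strand covers both. Hpgd held CAGCTG and CAGGTG, Gcnt1 held CAAATG, Rbm24 held CAGGTG and CAACTG, and the Hcn4 window held none. Of the leading genes, 13 higher ones were matched to 21 windows and 11 lower ones to 15 windows. The motif was in 16 of 21 windows (76.2%) on the higher side, in 11 of 15 (73.3%) on the lower side and in 66.2% of all 32851 windows of that length. Its narrower forms CAGATG or CATCTG were in 1 of 21 (4.76%), 1 of 15 (6.67%) and 14.4% of all windows. Some genes have several windows, and those of Sphk1 partly overlap, so windows are not independent. The homeodomain motif TAATTA, which also reads the same on both strands, was in 0 windows of either side and in 4.84% of all. A match describes letters in a window and is not a binding site, and a window without one says nothing on the factor.

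Genes of mesothelium and epicardium were higher in Scx-positive cells as a group. Of 30 listed genes 26 passed the filter, of which 18 were higher, 2 were lower and 6 were not past 2-fold, with a median log2 ratio of 1.59. Over all genes 2.81% were higher and 4.95% lower, or 3.53% and 4.61% without the cells high in Actc1. These shares stand beside the counts of every list below. Some list members, such as Sox9, Lhx9 and Hpgd, also led the higher side above. Podxl, the sialomucin podocalyxin and the most abundant member, had a lowest value of 0, a median of 765 and a highest of 1648 CPM in Scx-positive cells, against 0, 23.5 and 1070 CPM in Scx-negative cells. Ezr, which encodes ezrin and ties membranes to actin, was detected in all 32 Scx-positive cells with a median of 568 CPM, and in 19 of 25 Scx-negative cells with a median of 76.7 CPM. The log2 ratios were 2.06 and 1.82, and for both genes a few cells crossed: 3 Scx-negative cells exceeded the Scx-positive median of Podxl and 2 that of Ezr.

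Bnc1, a zinc finger factor of mesothelium, was detected in 30 of 32 and 9 of 25 cells at 114 ± 79.8 and 22.0 ± 36.9 CPM. Upk3b, another uroplakin, was detected in 27 and 5 cells at 202 ± 164 and 52.4 ± 120 CPM. Itga4, the alpha-4 integrin through which epicardial cells attach to the heart, was detected in 30 and 8 cells at 199 ± 180 and 38.7 ± 108 CPM. The keratins Krt8, Krt18 and Krt19 were also past 2-fold, with log2 ratios of 1.06, 1.35 and 1.20. Apela, a secreted ligand of the apelin receptor, had a log2 ratio of 2.37.

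The widely used epicardial regulators differed less. Wt1, a zinc finger factor, had medians of 152 and 44.5 CPM, detection in 31 and 20 cells and a log2 ratio of 1.27. Tcf21, a factor of the same protein family as scleraxis, needed for epicardial fibroblasts, was detected in 32 and 20 cells at 286 ± 190 and 173 ± 155 CPM, a log2 ratio of 0.72. Tbx18, the T-box gene that drives the Cre, was detected in 32 and 23 cells at 246 ± 96.0 and 154 ± 116 CPM, a log2 ratio of 0.67. Neither of these last genes passed 2-fold. Tbx20 and Gata5, factors shared by heart muscle and pro-epicardium, were the lower members at -1.12 and -1.03. Without the cells high in Actc1 both were within 2-fold, at -0.78 and -0.95, and the list stood at 18 higher and 0 lower with a median of 1.73.

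**Figure D1:**
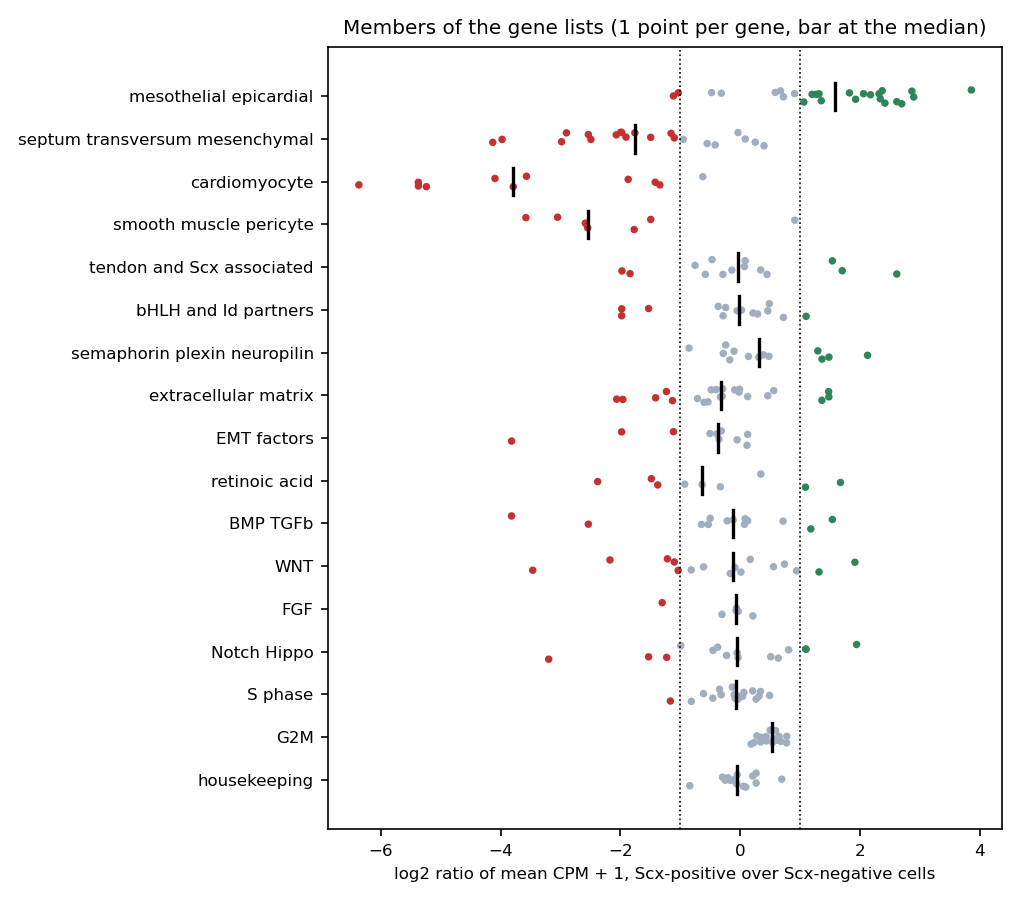
Log2 ratio of mean CPM + 1 between Scx-positive and Scx-negative cells (horizontal axis) for members of 17 gene lists (vertical axis). Each point is a gene that passed the filter on low values, dotted lines mark 2-fold in either direction and black bars are list medians: 1.59 for mesothelial and epicardial genes, -1.76 for septum transversum genes and -3.79 for cardiomyocyte genes.

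The 15 genes that led the lower side were Tnni3, Rbm24, Hcn4, Foxf1, Actc1, Ryr2, Tmod1, Fbxo32, Dpysl3, Myocd, Ndrg4, Hk1, Galnt14, Ankrd1 and Shisa2. Tnni3, cardiac troponin I, was detected in 1 of 32 Scx-positive and 13 of 25 Scx-negative cells, at 1.28 ± 7.21 and 93.2 ± 251 CPM, a log2 ratio of -5.37. Actc1 had a median of 14.2 and a highest value of 1866 CPM in Scx-positive cells, against 98.7 and 16303 CPM. Its log2 ratio of -4.09 rested on the cells that define the cardiac split: without them it was -0.26. Ankrd1, a muscle ankyrin repeat protein that is also a Hippo pathway target, went from -3.20 to 1.18 without them, so its direction turned. It also depended on a single cell at 3867 CPM, and leaving out the highest cell of each group brought it to -1.76.

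The other 13 leading genes stayed at least 2-fold lower without the cells high in Actc1, with log2 ratios from -4.42 for Foxf1 to -1.53 for Dpysl3, and Tnni3 at -3.01. They include genes that fell below the filter on low values without those cells, among them Tnni3 and Ryr2. Rbm24, an RNA-binding protein of muscle splicing, was detected in 5 of 32 and 19 of 25 cells, with medians of 0 and 48.1 CPM. Hcn4, the pacemaker channel of the sinoatrial node, was detected in 4 of 32 Scx-positive cells (12.5%, 3.51 to 29.0%) and 16 of 25 Scx-negative cells (64%, 42.5 to 82.0%). Among the Scx-negative cells it was detected in all 7 that were high in Actc1 and in 9 of the 18 that were not. Myocd, the myocardin coactivator of smooth and cardiac muscle genes, was detected in 3 and 16 cells at 3.30 ± 10.5 and 50.3 ± 51.1 CPM. The log2 ratios of these 3 genes without the cells high in Actc1 were -3.30, -3.09 and -3.00. For Rbm24, 15 Scx-negative cells lay above every Scx-positive cell, for Hcn4 12 and for Myocd 11.

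The cardiomyocyte list differed between the Scx groups and, within the Scx-negative cells, by Actc1. Actc1 is itself on this list, so the split by Actc1 fixes part of that second difference. Of 18 genes 11 passed, 10 were lower in Scx-positive cells and 0 higher, with a median log2 ratio of -3.79. Among the lower ones were the myosin heavy chain Myh6 at -6.37, Csrp3 at -5.37 and the troponin gene Tnnc1 at -5.24. Without the cells high in Actc1, 6 of the 18 passed, 0 of these 6 were past 2-fold in either direction and their median was 0.01. Tnni3 and Ryr2 then fell below the filter on low values, at log2 ratios of -3.01 and -2.195, so the 0 does not cover them. The summed level of the list ran from 1002 to 6671 CPM in Scx-positive cells, from 758 to 6534 CPM in Scx-negative cells low in Actc1, and from 7026 to 41905 CPM in Scx-negative cells high in Actc1. Smooth muscle and pericyte genes had 7 of 12 passing, 6 lower and 0 higher, with a median of -2.55. Acta2, Myocd, Pdgfrb and Des were lower without the cells high in Actc1 as well, while Tagln and Cnn1 were not, at 0.26 and -0.04.

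Genes listed for the septum transversum and its mesenchyme were mostly lower in Scx-positive cells both times. Like the other lists, this one was chosen with earlier results of these data known. It includes Shisa3, Tmem119, Cyp1b1 and Selenbp1, all among the lower members, so its counts and medians are a description. Of 22 genes 21 passed, of which 14 were lower, 0 higher and 7 not past 2-fold, with a median log2 ratio of -1.76. Without the cells high in Actc1, 20 passed, 13 were lower, 0 higher and the median was -1.73. Foxf1, a forkhead factor of gut and liver mesenchyme, was detected in 3 of 32 Scx-positive cells (9.38%, 1.98 to 25.0%) and 13 of 25 Scx-negative cells (52%, 31.3 to 72.2%). Its lowest, median and highest values were 0, 0 and 84.6 CPM in the former and 0, 12.6 and 540 CPM in the latter, a log2 ratio of -4.13 that was -4.42 without the cells high in Actc1. Lhx2, the LIM-homeodomain relative of Lhx9, was detected in 8 of 32 and 16 of 25 cells, at 9.75 ± 24.1 and 83.9 ± 149 CPM. In the Scx-negative cells it was detected in 15 of the 18 low in Actc1 and in 1 of the 7 high in Actc1. Foxf1 and Lhx2 were detected together in 10 of those 18 cells and in 2 of the 32 Scx-positive cells.

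Several other genes of mesenchyme lay on the same side, but not all. Pdgfra, also on the septum transversum list, was within 2-fold at 0.40. Hlx, a homeobox gene of the septum transversum, was detected in 4 and 11 cells with a log2 ratio of -2.90. Hand1, a basic helix-loop-helix factor, stood at -1.98, Shisa3 at -2.49, the orphan nuclear receptor Nr2f1 at -1.99 and the desmin gene Des at -1.49. Tgfbr3, the betaglycan co-receptor from the list of mesenchymal transition genes, was detected in 3 and 10 cells at 2.16 ± 7.02 and 43.5 ± 81.6 CPM. Isl1, Bmp4 and Wnt2 were lower over all cells, at -3.98, -2.54 and -1.10, and not past the rule without the cells high in Actc1: Bmp4 and Wnt2 were at -0.82 and -0.10, and Isl1 did not pass the filter. Gata4 and Gata6, zinc finger factors that both groups shared, were detected in every kept cell and stayed within 2-fold at 0.25 and -0.42. Fewer cells of a kind and less RNA per cell cannot be told apart, in the group means or in the counts of detecting cells, and Scx-positive cells had the lower median total.

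Lhx9 divided most cells the way Scx did. It was detected in 28 Scx-positive and 3 Scx-negative cells, so 4 Scx-positive and 22 Scx-negative cells lay below 5 Lhx9 counts. With 4 cells on one side no count of genes was made within that stratum, nor within the cells with Lhx9, where 28 stood against 3. Lhx2 without Lhx9 was found in 3 of 32 Scx-positive cells (9.38%, 1.98 to 25.0%) and 14 of 25 Scx-negative cells (56%, 34.9 to 75.6%). Both LIM factors were detected together in 5 Scx-positive and 2 Scx-negative cells. Only 1 Scx-positive and 2 Scx-negative cells had neither factor and Actc1 below 1000 CPM.

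**Figure D2:**
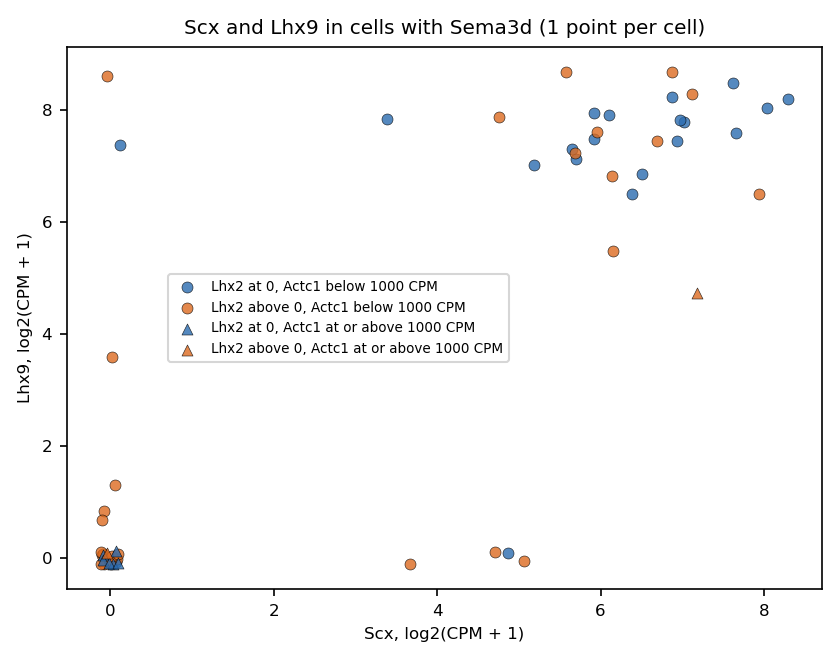
Scx (horizontal axis) against Lhx9 (vertical axis) in the 57 cells, both as log2(CPM + 1), with a small random shift so that cells at 0 can be told apart. Points are cells, orange marks any Lhx2 count and triangles mark Actc1 at 1000 CPM or more. Most cells lie at the upper right with both genes or at 0 for both, with 4 Scx-positive cells at 0 for Lhx9 and 3 Scx-negative cells at 5 or more Lhx9 counts.

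The 4 Scx-positive cells without Lhx9 shared only part of the profile. Their Scx counts were low, at 9, 9, 19 and 32, where 9 was the lowest and 71.5 the median of all Scx-positive cells. Sox9 stood at 12.8, 267, 536 and 680 CPM in the 4 cells. Tcf21 stood at 107, 127, 345 and 569 CPM, which in the mean was 287 CPM against 286 CPM in the 28 cells with Lhx9. Lrrn4 was lower, at 18.3, 22.0, 50.8 and 106 CPM, against a median of 302 CPM with Lhx9. Podxl was at 0, 54.6, 97.3 and 262 CPM, against a median of 844 CPM. Upk1b was detected in none of the 4 and in 25 of the 28. Of the 14 leading higher genes other than Lhx9, these cells detected 3, 4, 5 and 7. In the same order of cells, they detected 7, 11, 9 and 5 of the 15 leading lower genes. Lhx2 was detected in 3 of the 4. Tcf21 lay within the range of the other Scx-positive cells in all 4, and Sox9 in 3 of them, since the cell at 12.8 CPM was below the lowest of the 28, at 35.3 CPM.

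The 3 Scx-negative cells with Lhx9 were not alike. Sox9 stood at 23.3, 222 and 645 CPM, Lrrn4 at 0, 223 and 227 CPM and Podxl at 22.0, 778 and 792 CPM. The cell lowest in each of these genes was 1 and the same, and it also held Lhx2 at 299 CPM and detected 2 of the 14 leading higher genes and 9 of the 15 lower ones. The other 2 detected 7 and 8 of the higher genes and 3 and 5 of the lower ones. Against these, the 22 cells with neither Scx nor Lhx9 detected a median of 2.5 of the 15 leading higher genes, between 0 and 6 per cell, and a median of 10.5 of the lower ones. The 28 cells with both detected a median of 12 of the 15 higher genes and 3 of the lower ones. The 15 higher genes include Lhx9, which by definition was detected in all 28 cells and in none of the 22. Counts out of 15 and out of 14 are therefore not on the same scale. These genes were selected on the same cells, so the counts describe how the mixed cells lie between the groups and support nothing further.

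**Figure D3:**
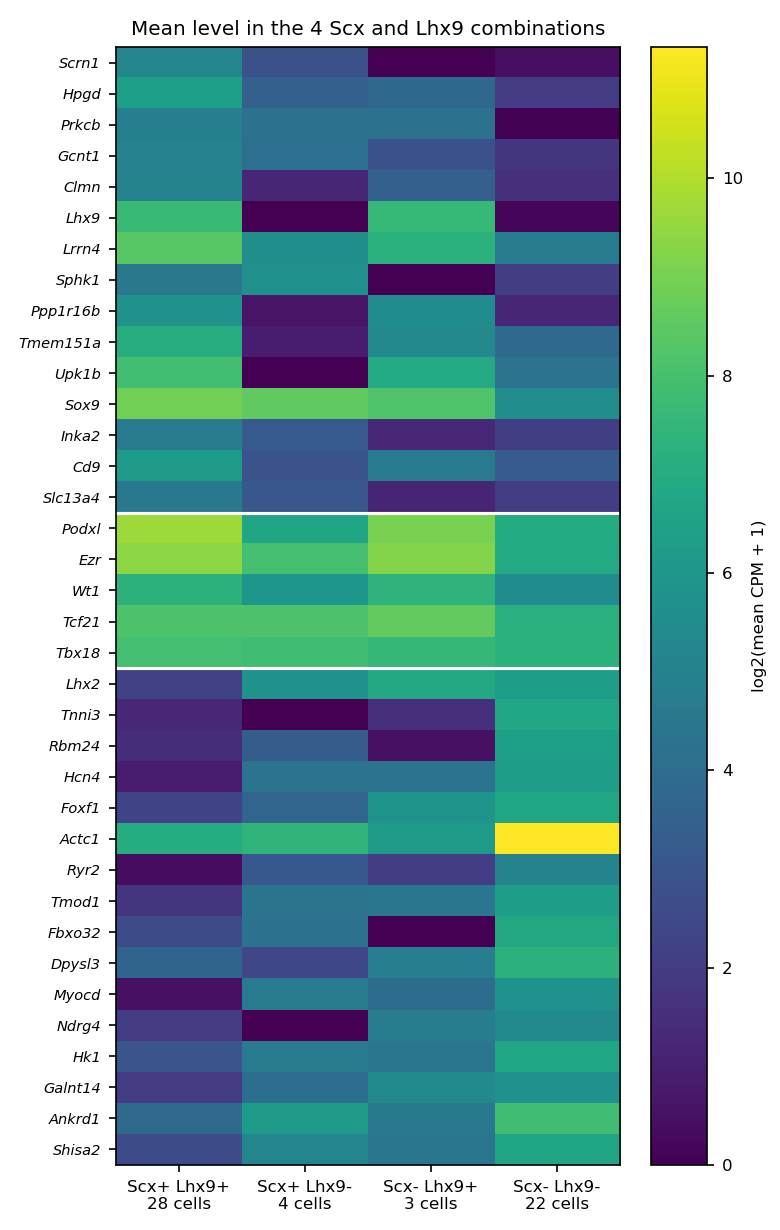
Mean level of leading genes and 6 regulators or surface genes (rows) in the 4 combinations of Scx and Lhx9 (columns), as log2(mean CPM + 1) in colour. White lines separate the leading higher genes, 5 mesothelial genes, and Lhx2 with the leading lower genes; Sox9, Tcf21 and Tbx18 are within 2-fold of each other across the first 3 columns, while Lrrn4, Upk1b and Podxl are lower in the 4 Scx-positive cells without Lhx9.

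Genes that accompany Scx in tendon lay on both sides. Of 29 listed genes 14 passed the filter, 3 were higher (Sox9, Dcn and Tgfb3) and 2 were lower (Tnc and Thbs4), where 2.81% of all genes were higher and 4.95% lower. The median log2 ratio of the list was -0.04. Dcn, the small proteoglycan decorin, was detected in 25 of 32 and 5 of 25 cells at 70.8 ± 73.1 and 21.1 ± 57.9 CPM. Tgfb3, a TGF-beta ligand, was detected in 22 and 8 cells with a log2 ratio of 1.54. Tnc, the tenascin-C gene that marks tendon matrix, went the other way, with medians of 7.77 and 252 CPM and a log2 ratio of -1.98. The lower call of Thbs4 came from 1 Scx-negative cell at 1244 CPM: the gene was detected in 10 Scx-positive and 3 Scx-negative cells, and without the highest cell of each group the log2 ratio was 0.47. The fibrillar collagens Col1a1, Col1a2 and Col3a1 were within 2-fold, at -0.47, -0.14 and 0.08. Mkx, Kera and Comp were detected in no kept cell, and Tnmd, the late tendon marker tenomodulin, in 1 Scx-positive cell.

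The possible partners of scleraxis were detected in both groups. Basic helix-loop-helix factors dimerise with E proteins, and Id proteins block them. The E protein genes Tcf3, Tcf4 and Tcf12 had log2 ratios of -0.37, -0.29 and -0.24. Id3, the most abundant member, stood at 1193 ± 676 and 1175 ± 458 CPM, and Id2 at 929 ± 357 and 759 ± 323 CPM. Of 19 genes in this list 14 passed, 1 was higher (Hey1 at 1.10) and 3 were lower (Twist2 at -1.98, Hand1 at -1.98 and Hes1 at -1.53). Without the cells high in Actc1, Hey1 was not called, Id4 and Bhlhe40 were higher and the same 3 genes were lower.

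Among 28 semaphorins, plexins and neuropilins other than Sema3d, 13 passed and the receptors carried the difference. Nrp2, a neuropilin that binds class 3 semaphorins, was detected in 25 of 32 and 8 of 25 cells, with medians of 44.8 and 0.70 CPM and a log2 ratio of 2.12. Plxna4 and Plxna2, signalling partners of neuropilins, had medians of 105 and 21.9 CPM and of 80.0 and 23.9 CPM, with log2 ratios of 1.48 and 1.37. Sema3b was the one ligand past 2-fold, at 1.30, and was within it at 0.92 without the cells high in Actc1. No member was lower over all cells, and Sema6d was lower without those cells, at -1.22. Nrp1, the most abundant member, was detected in all 57 cells at 245 ± 138 and 291 ± 173 CPM. Sema3a and Sema3c were within 2-fold, at -0.28 and 0.39.

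In the signalling lists single members lay on both sides, where 2.81% of all genes were higher and 4.95% lower. In the WNT list 16 of 23 passed, 2 higher and 5 lower, with a median of -0.13. Wnt5a, a non-canonical ligand, was detected in 16 of 32 and 6 of 25 cells with a log2 ratio of 1.91, and Rspo1, a secreted WNT agonist, in 25 and 7 cells with 1.32. On the other side were the ligand Wnt4 at -3.46, detected in 1 and 9 cells, the antagonist Dkk1 at -2.18, the receptor Fzd7 at -1.22, Wnt2 and the secreted inhibitor Sfrp1 at -1.04. Sfrp5, the most abundant WNT gene, had medians of 660 and 197 CPM and a log2 ratio of 0.94. It passed the rule without the cells high in Actc1, at 1.49.

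In the retinoic acid list 9 of 15 passed, 2 higher and 3 lower. The retinaldehyde dehydrogenases, which make retinoic acid, went apart: Aldh1a1 was detected in 15 of 32 Scx-positive and 3 of 25 Scx-negative cells, with a log2 ratio of 1.67, and Aldh1a2 in 9 and 5 cells, with -1.48. The mean of Aldh1a2 came from few cells, since the median was 0 CPM in both groups and the shares were 28.1% (13.7 to 46.7%) and 20% (6.83 to 40.7%). The retinoic acid binding proteins Crabp1 and Crabp2 were lower at -2.38 and -1.38. In Crabp2 the medians were 62.2 and 160 CPM and 7 Scx-negative cells exceeded every Scx-positive cell.

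In the BMP and TGF-beta list 13 of 20 passed, 2 higher (Tgfb3 and the receptor Acvr1 at 1.18) and 2 lower (Tgfbr3 and Bmp4), with a median of -0.12. Without the cells high in Actc1, Acvr1 and Bmp4 were not called, and Bmp7 was higher. In the FGF list 6 of 16 passed and the receptor Fgfr1 was the one lower member, at -1.30, with detection in 17 of 32 and 23 of 25 cells. Of 21 Notch and Hippo genes 15 passed, 3 higher and 3 lower. Ccn2, the matricellular growth factor and Hippo target, had medians of 298 and 31.1 CPM and a log2 ratio of 1.94, and the Hippo coactivator Wwtr1 was detected in 32 and 17 cells with a log2 ratio of 1.09. Hey1, a Notch target, was higher while Hes1, another, was lower, and the receptor Notch3 stood at -1.23. Without the cells high in Actc1, Hey1 was not called, while Hes1 and Notch3 were still lower.

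The matrix list was mixed. Of 25 genes 22 passed, 3 were higher (Hapln1, Lama5 and Fbln2) and 5 lower (Smoc2, Col6a2, Vcan, Col6a1 and Nid1), with a median of -0.32. Without the cells high in Actc1, Col6a1 was not called and Col4a2 was higher. Fbln2, a basement membrane fibulin, had a lowest value of 134, a median of 345 and a highest of 820 CPM in Scx-positive cells, and 0, 107 and 477 CPM in Scx-negative cells. All 32 Scx-positive cells lay above the Scx-negative median, and the log2 ratio was 1.36. Vcan, the proteoglycan versican, ran opposite with medians of 51.8 and 138 CPM, and 12 Scx-negative cells lay above every Scx-positive cell. Of 14 genes of epithelial to mesenchymal transition 10 passed, 3 were lower (Tgfbr3, Twist2 and Prrx2) and 0 higher. Cdh1 was detected in no kept cell, and Vim and Cdh2 were within 2-fold at 0.11 and -0.32.

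Cell cycle genes were nearly all within 2-fold, and the G2/M genes lay to one side. All 18 passed, 0 were past 2-fold and the median log2 ratio was 0.53, against -0.03 over all genes. The summed G2/M level had a median of 3012 CPM in Scx-positive cells (335 to 9629 CPM), and of 746 CPM in Scx-negative cells (45.8 to 9381 CPM). In the Scx-negative cells it was 846 CPM below and 375 CPM above the Actc1 threshold. The median log2 ratio of the list was 0.25 without the cells high in Actc1. Of 18 S-phase genes, all of which passed, Cdc6, which loads the replicative helicase, was the one past 2-fold, at -1.17. Neither 14 housekeeping genes nor the 9 of 12 dissociation stress genes that passed held a member past 2-fold over all cells, with medians of -0.05 and 0.22.

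Defining markers of other cell types were at or near 0. Among 20 endothelial genes 4 passed, and Cdh5, Tie1, Emcn, Cldn5, Lyve1, Stab2, Tal1, Etv2 and Sox18 were detected in no kept cell. Flt1, a VEGF receptor, was the exception: it was detected in 21 of 32 and 4 of 25 cells, at 47.5 ± 54.1 and 8.53 ± 21.4 CPM, with a log2 ratio of 2.35. Tek was within 2-fold at 0.76. The summed endothelial list ran from 43.8 to 371 CPM in Scx-positive and from 30.9 to 262 CPM in Scx-negative cells. Of 10 erythroid genes the alpha globins Hba-a1 and Hba-a2 passed, at -0.67 and -0.61, with a summed list level of at most 239 and 465 CPM. None of 12 hepatoblast and foregut, 8 leukocyte, 9 neural crest and 4 Y-linked genes passed, and their summed levels reached 239, 45.0, 129 and 29.5 CPM in Scx-positive cells and 68.4, 16.7, 68.8 and 36.2 CPM in Scx-negative cells.

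Within the 32 Scx-positive cells, genes were ranked by the Spearman correlation of their CPM with that of Scx, over 8108 genes detected in at least 50% of these cells. The cells come from 1 sample and CPM values share each cell's total, and Scx counts chose the cells, so the values are a description and no finding rests on them. They ran from -0.60 to 0.67 with a median of -0.01, and Scx itself had a correlation of 0.10 with total counts. The highest were Crls1 (0.67), Igfbp5 (0.64), Rela (0.64), Pdgfra (0.62), Ccnjl (0.61), Map3k4 (0.61), Bckdha (0.60), Map2k1 (0.59), Rgl1 (0.58) and Plod3 (0.58). Igfbp5, an insulin-like growth factor binding protein, and Pdgfra, a PDGF receptor of epicardial mesenchyme, were within 2-fold between the groups, at 0.43 and 0.40. The lowest were Tnc (-0.60), Rpl7a, Spdl1 and Hmgb3 (each near -0.58) and Nrp1 (-0.58). Sox9 had a correlation of 0.53 with Scx, Lhx9 0.38, Wt1 0.28, Lrrn4 0.24, Tcf21 0.14 and Tbx18 0.00.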

How the data were processed

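RNA of 74 single cells was amplified full-length (SMARTSeq V4) and made into Nextera XT libraries, per the labels. The deposited values are estimated counts per gene made by the authors, not normalised for depth or length. The submitters' processing notes name kallisto and hg38, whereas all identifiers in the table are mouse Ensembl genes; the kallisto version and the rounding or summing to genes are not given in the sources used here. GENCODE M21 (GRCm38) gave symbols for 29857 of 30323 identifiers, and the 466 without one held 0.357% of counts. No 2 cells held identical values, no doublet caller was run on these singly sorted cells, and no cell was left out.

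Counts were scaled to CPM. Cells with 5 or more Sema3d counts were split at 5 Scx counts. Ratios are of group means of CPM with a pseudocount of 1 CPM, and log2 ratios are on that scale, which understates differences of low genes. Genes were named by these rules: 15 leading genes on each side, members of 24 gene lists past 2-fold, regulators, and the genes of highest and lowest correlation with Scx. Members named within 2-fold, and the genes named from the split by Actc1, were chosen after their values were seen. The cells, lists and rules were all chosen with earlier results of these data known. Alternatives changed the count thresholds, the scaling, the filter, the pseudocount and the summary, thinned every cell to 300000 counts, or left out cells. The scripts were tested on simulated data. Versions were pandas 2.3.3, numpy 2.4.6, SciPy 1.17.1 and matplotlib 3.10.9 under Python 3.11.15.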

Additional observations from a re-analysis of the deposited data

How the results depend on the processing

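The 250 higher and 441 lower genes became 690 and 1433 without a filter on low values, 136 and 226 with a pseudocount of 10 CPM, and 961 and 592 with median in place of mean CPM; the cause was not tested, beyond the larger number of genes without a filter (19109). Higher genes were 36.2% of those called with means and 61.9% with medians. The 15 leading higher genes stayed past 2-fold under every alternative run. Of the 15 leading lower ones, Ankrd1 was not past it with medians, and Actc1 and Ankrd1 were not past it without the cells at 1000 CPM or more of Actc1, where Ankrd1 turned to 1.18 and the median of the cardiomyocyte list to 0.006. Of 385 values of the 35 named genes past 2-fold, 381 stayed past it in the same direction, 3 did not (Actc1, Ankrd1 and Aldh1a2) and 1 reversed (Ankrd1). A Scx threshold of 1 count and the lack of a filter cannot change the ratio of a gene, so those values were fixed in advance. The leading genes among the 35 were also selected by ratio on the same cells, so the tally is a description. Of 44 medians of the 4 lists past 2-fold, 42 stayed past it, and the 2 others were of the cardiomyocyte list. The Scx threshold of 1 count repeats the list medians too. Sizes moved within these calls, as for Hpgd.

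Gene counts within cells below 5 Lhx9 counts were not run, because 4 Scx-positive cells stood against 22. A Scx threshold of 1 count gave the same cells, and thinning to 300000 counts gave 27 Scx-positive and 21 Scx-negative cells, with 2 formerly Scx-positive cells among the latter. With cells as 1 sample, no spread between embryos can be given. No paired analysis was possible because the labels give 1 group and no pairing.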

Other observations

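The 17 cells left out by the Sema3d rule held 3 Scx-positive and 14 Scx-negative cells. Of the 3 Scx-positive cells, 2 had 0 Sema3d counts, each detecting 2 of the 14 leading higher genes other than Lhx9, and 1 and 11 of the 15 leading lower ones. The other had 3 Sema3d counts (13.9 CPM) and detected 12 of the higher genes and 1 of the lower ones. Lhx9 was detected in 2 of the 3. Of the 14 Scx-negative cells below 5 Sema3d counts, 9 had Actc1 at 1000 CPM or more, against 7 of the 25 kept ones, and Lhx2 was detected in 2 of the 14, against 16 of the 25. Wt1 and Tcf21 were at means of 8.14 and 41.6 CPM in these 14 cells, and Tbx18 at 117 CPM.

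Without the cells high in Actc1, genes that entered the leading 15 on the higher side were Tgm2, Rasal1, Flt1, Gm28661, Car4 and Hps3. Hps3, a gene of lysosome-related organelle biogenesis, separated the groups widely: it was detected in 29 of 32 Scx-positive cells and 11 of 25 Scx-negative cells, with medians of 61.4 and 1.47 CPM, and 21 Scx-positive cells lay above every Scx-negative cell. Car4, a membrane-bound carbonic anhydrase, had medians of 170 and 0 CPM. On the lower side Tgfbr3, Lhx2, Hlx, Hoxb5, Adamts2, Limch1, Shisa3, Vegfc and Pdgfrb entered.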
